A study of Mus musculus with 5 samples.

Results

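The mRNAs of the MCM replicative helicase were read out of direct RNA sequencing of mouse embryonic stem cells (mESCs). The group is the 6 genes Mcm2, Mcm3, Mcm4, Mcm5, Mcm6 and Mcm7, and its members were all positions of the deposited files that lie on an exon of these genes (GENCODE M21 annotation of mm10) on the strand of the call. Positions were found for 5 of the 6 genes, and Mcm7 (ENSMUSG00000029730.16) is not analysed here because no deposited position fell on its exons. In the METTL3 inhibition dataset these genes held 1993 of the 468161 exonic positions, which came from 2638 genes. In the Mettl5 dataset they held 1084 of 193656, from 1045 genes. The transcript base was A at 1990 of the 1993 positions.

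The METTL3 inhibition dataset had 1 library of E14 mESCs treated with 30 µM STM2457, an inhibitor of the m6A methyltransferase METTL3, for 48 h, and 1 library of control cells treated with 0.025% v/v DMSO. Both came from a line that the labels call WT but that, per the study's methods, carries the reporters 2C::3xtbGFP-PEST and Zscan4::mCherry-PEST, a non-induced Dox::APOBEC1-YTH-HA-IRES-tdiRFP transgene and a homozygous, non-induced FKBP12 degradation tag at the C terminus of Mettl3. The Mettl5 dataset had 1 library of untreated WT mESCs and 1 library from each of 2 untreated Mettl5KO clones, which lack the methyltransferase of 18S ribosomal RNA, and each clone is a single line. Cells of both datasets were grown in serum with LIF, with 2i for maintenance, and the labels give 1 batch per dataset.

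The libraries held between 17897440 (clone #1) and 71574467 (DMSO) valid modification calls, with a median of 45 to 64 calls per position. Of 8 embryonic stem cell markers, 8 were covered in the METTL3 inhibition dataset and 6 in the Mettl5 dataset, while 0 of 4 fibroblast and 0 of 4 germ layer markers were. With 1 library per condition, every test below compares libraries and not conditions, and the intervals are exact (Clopper-Pearson) binomial 95% intervals that cover counting error only.

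The MCM proteins form a ring of related ATPase subunits that is loaded onto DNA before replication starts, a step called licensing, and that later unwinds the double helix at the fork. Loading needs the origin recognition complex, CDC6 and CDT1, and the loaded ring becomes an active helicase when CDC45 and GINS join it. Embryonic stem cells divide quickly with a short G1 phase and are known for high levels of MCM proteins. m6A, the methylation of adenosine in mRNA, is placed mainly by METTL3 at DRACH motifs (D is A, G or U, R is A or G, H is A, C or U), most often in long internal exons and near stop codons, and is known to shorten the life of many mRNAs.

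A site was an exonic position with more than 25 valid calls in every library of its dataset and an m6A level, the share of valid calls that were m6A, of 25% or more in at least one. The MCM mRNAs held 15 such sites in the METTL3 inhibition dataset, of which 11 were DRACH motifs (73.3%, beside 88.6% of all 6201 sites). The sequences around 8 of them are shown in DNA letters, 5′ to 3′, from GENCODE M21 transcripts on mm10. They are the DRACH site with the highest DMSO level of each mRNA, the one site outside DRACH that fell, and a pair outside DRACH that did not. Capitals mark the 5 bases centred on the called adenosine.
Mcm2, chr6:88883687-88883707, minus strand: gtgtttctGGACTgttttgtt
Mcm5, chr8:75127492-75127512, plus strand: gtgtctgaGGACTctctgctc
Mcm3, chr1:20803349-20803369, minus strand: gacgatcaGGACTtggtggaa
Mcm4, chr16:15624210-15624230, minus strand: ctttacagAGACTttttccca
Mcm6, chr1:128331772-128331792, minus strand: tcatactgGGACAggcttggg
Mcm5, outside DRACH, chr8:75127450-75127470, plus strand: ctggaaatGTACTttggtctg
Mcm3, outside DRACH, chr1:20803329-20803349, minus strand: agctttgtGTATGacttctgc
Mcm4, outside DRACH, chr16:15630396-15630416, minus strand: aaacgtctGCATGgccttgat

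The sites read in the MCM mRNAs lay almost wholly behind the stop codon, and in Mcm3 and Mcm6 only the last exon could be read. Of the 15 sites, 14 were in the 3′ UTR and in the last exon (93.3%, beside 66.5% of all sites), between 17 and 573 bases after the stop codon. The remaining one was in exon 10 of Mcm4, an internal coding exon of 260 bases. Each of the 5 mRNAs had between 2 and 4 sites.

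How much of each mRNA could be read differed. Mcm4 (ENSMUSG00000022673.5, chr16:15623897-15637400, minus strand) was covered in all 16 of its exons, with 907 positions at a median depth of 51 calls in DMSO and 46 in STM2457. Mcm2 (ENSMUSG00000002870.8, chr6:88883474-88898780, minus strand) was covered in its last 12 of 16 exons, with 607 positions at 286 and 156 calls. Mcm3 (ENSMUSG00000041859.10, chr1:20802968-20820312, minus strand) and Mcm6 (ENSMUSG00000026355.11, chr1:128331590-128359664, minus strand) were covered in the last of 17 exons only, with 162 and 114 positions. Mcm5 (ENSMUSG00000005410.6, chr8:75109569-75128439, plus strand) had 203 positions in 4 of 17 exons. No covered position of these mRNAs lay on an exon of another gene on the same strand.

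All covered DRACH motifs, methylated or not, showed the same place in the transcript. Above 25 calls in both libraries there were 156 of them in the MCM mRNAs, and 11 were at 25% or more in DMSO (7.05%, beside 14.2% of 38761 in all genes). In the 3′ UTR these were 11 of 47 (23.4%, beside 18.8% in all genes), and the calls pooled over the 47 gave a level of 15.7%, beside 12.6% over all genes. In internal coding exons 0 of 97 reached 25%, beside 3.68% of 10204 in all genes, 57 of the 97 had no m6A call, the highest was at 10.9%, and the pooled level was 0.635% (89 of 14023 calls), beside 1.86%. In the coding part of the last exon 0 of 9 reached 25%, beside 17.4% of 7492 in all genes, with a highest level of 11.8%. Of these 9, 8 lay within 100 bases of the last splice junction. At that distance in last exons, 4.83% of 4081 motifs in all genes reached 25%. In the 5′ UTR of Mcm4, 3 motifs at 31 to 32 calls each had 0 of 95 calls as m6A. The exact interval of each motif alone allows a level of up to 10.9 to 11.2%. In all genes 13.8% of 421 motifs of 5′ UTRs reached 25%. These shares are descriptions without a test, since positions on the same reads are not independent.

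The internal coding motifs that could be read lay mostly close to splice junctions. Of the 97, 90 were within 100 bases of a junction, with a pooled DMSO level of 0.565%. The other 7 were 100 bases or more from both junctions, with a pooled level of 3.13%. All 7 were in Mcm4, whose 44 motifs within 100 bases had a pooled level of 0.915%. Of the 13640 calls within 100 bases, 11163 were from Mcm2. In all genes the pooled levels were 0.998% over 8762 motifs within 100 bases and 8.39% over 1442 farther ones. At 25% or more were 0 of the 90 and 0 of the 7, beside 0.708% and 21.8% in all genes. Mcm2 gave the deepest reading, with 38 internal coding motifs at 249 to 343 calls in DMSO, of which the highest was at 4.29%.
Mcm4 held the 4 internal coding motifs at 5% or more in DMSO. Of these, 3 were in exon 11, which has 366 bases, at 10.9% (6 of 55 calls), 9.43% (5 of 53) and 8.93% (5 of 56), each at 0 in STM2457. The other one, in exon 10, was at 9.62% (5 of 52 calls) in DMSO and 2.17% (1 of 46) in STM2457. These levels were below the threshold of a site and were not tested.

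**Figure D1:**
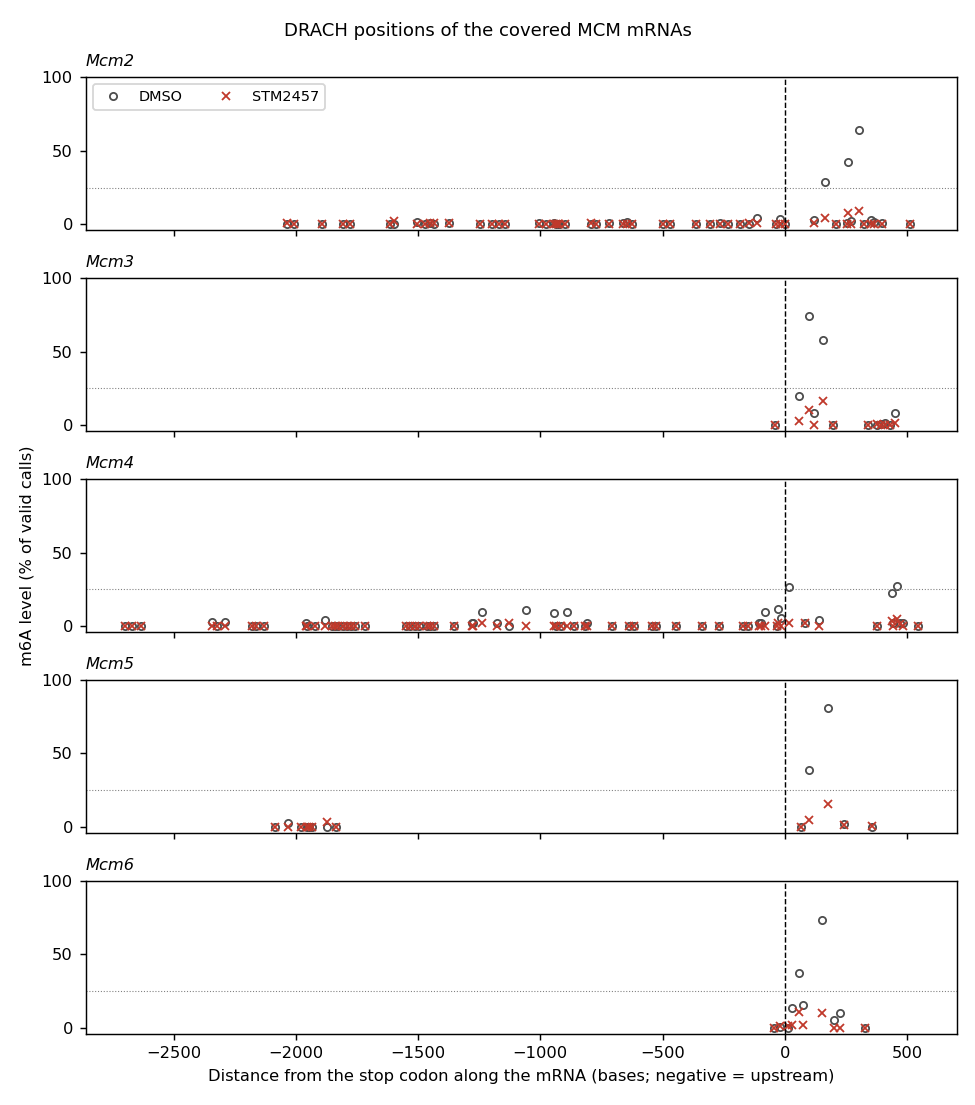
m6A level (percent of valid calls) of each covered DRACH position of Mcm2, Mcm3, Mcm4, Mcm5 and Mcm6 against its distance from the stop codon along the mRNA, with open circles for DMSO and crosses for STM2457 (1 library each); the dotted line marks 25%. The 11 positions above the line are all DMSO values to the right of the stop codon, and no cross lies above 16.3%.

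The first question was what inhibition of METTL3 did to these sites. After STM2457, 12 of the 15 MCM sites were lower by Fisher's exact test (two-sided, m6A against the other valid calls, Benjamini-Hochberg adjustment over all 6201 sites), a share of 80.0% where 91.5% of all sites were called lower. None of the 15 was higher, beside 0.323% of all sites. All 11 DRACH sites fell, beside 5354 of 5493 DRACH sites in all genes (97.5%), and 1 of the 4 other sites fell, beside 319 of 708 (45.1%). The 11 passed the 25% rule through DMSO alone, with 0 of them at 25% or more in STM2457. In all genes 5492 of the 5493 DRACH sites were at 25% or more in DMSO. The test and the decreases thus use the DMSO values that selected the sites, which favours a fall. The mean level of the 11 DRACH sites was 50.1% in DMSO and 8.86% in STM2457. The mean relative decrease, the loss as a share of the DMSO level, was 82.6% ± 6.45 (SD over the 11 sites, which are not replicates), with a median of 85.3%, beside a median of 80.8% over all DRACH sites. Over all 15 sites it was 62.7% ± 53.3, with a median of 82.0%. These include the internal coding site of Mcm4, at 16.7% in DMSO and 35.5% in STM2457, which passed the rule through STM2457 only. Over the 14 sites of the 3′ UTR the mean relative decrease was 75.3% ± 22.6. At 25% or more were 14 of the 15 sites in DMSO and 2 in STM2457, beside 6096 and 1377 of all 6201 sites.

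Mcm2 and Mcm5 encode the neighbouring subunits between which the ring opens to take up DNA, and MCM2 also binds histones. Their sites were the most deeply read. In Mcm2, the site 303 bases after the stop codon, in a GGACT, was m6A in 215 of 336 calls in DMSO (64.0%, interval 58.6 to 69.1) and in 18 of 191 in STM2457 (9.42%, interval 5.68 to 14.5), with an adjusted p = 8.1e-36 by Fisher's exact test. The AGACT at 258 bases went from 152 of 357 calls (42.6%) to 16 of 199 (8.04%), with an adjusted p = 2.3e-18 by Fisher's exact test. The TGACT at 163 bases went from 100 of 347 calls (28.8%) to 8 of 194 (4.12%), with an adjusted p = 6.4e-13 by the same exact test. The DMSO levels of the 3 Mcm2 sites had intervals that did not overlap, and each STM2457 interval lay below the DMSO interval of its site.

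Mcm5 held the site with the highest level of the group. Its GGACT at 178 bases after the stop codon was m6A in 393 of 486 calls in DMSO (80.9%, interval 77.1 to 84.3) and in 39 of 245 in STM2457 (15.9%, interval 11.6 to 21.1), with an adjusted p = 1.2e-64 by Fisher's exact test. The AGACT at 98 bases went from 183 of 476 calls (38.4%) to 12 of 243 (4.94%), with an adjusted p = 4.9e-24 by Fisher's exact test. Between them, at 136 bases, stood a site in a GTACT, which has a T in the place of the R and is no DRACH motif. It went from 297 of 427 calls (69.6%, interval 64.9 to 73.9) to 28 of 227 (12.3%, interval 8.36 to 17.3), with an adjusted p = 8.9e-46 by Fisher's exact test. Its relative decrease of 82.3% lay between those of the neighbouring DRACH sites, at 80.3% and 87.2%. In all genes, 44 sites had this GTACT and 40 of them were lower, with a median relative decrease of 82.2%. The GTACT sites were counted after the Mcm5 value was seen.

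MCM3 is the subunit through which the ring is first bound to CDC6 on the origin. Its highest site, a GGACT at 97 bases after the stop codon, was m6A in 168 of 227 calls in DMSO (74.0%, interval 67.8 to 79.6) and in 15 of 141 in STM2457 (10.6%, interval 6.08 to 16.9), with an adjusted p = 1.8e-33 by Fisher's exact test. A further GGACT at 158 bases went from 71 of 122 calls (58.2%) to 16 of 98 (16.3%), with an adjusted p = 7.4e-10 by Fisher's exact test. This site rested on fewer calls than its neighbours because 41.6% of calls in DMSO and 26.9% in STM2457 failed the confidence filter. Its relative decrease was 71.9%, the second smallest of the 11 DRACH sites.

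MCM6 binds CDT1 during loading, and MCM4 carries the tail that the kinase CDC7 phosphorylates to start the fork. The GGACA of Mcm6 at 153 bases was m6A in 106 of 145 calls in DMSO (73.1%, interval 65.1 to 80.1) and in 9 of 87 in STM2457 (10.3%, interval 4.84 to 18.7), with an adjusted p = 8.3e-21 by Fisher's exact test. The GGACC of Mcm6 at 56 bases had the smallest relative decrease of the DRACH sites, 70.9%, from 50 of 134 calls (37.3%) to 9 of 83 (10.8%), with an adjusted p = 2.8e-05 by Fisher's exact test. The DRACH sites of Mcm4 were the lowest of the group. Its AGACT at 457 bases went from 15 of 55 calls (27.3%, interval 16.1 to 41.0) to 3 of 61 (4.92%, interval 1.03 to 13.7), with an adjusted p = 0.0018 by Fisher's exact test. Its GGACT at 17 bases went from 15 of 56 calls (26.8%, interval 15.8 to 40.3) to 1 of 51 (1.96%, interval 0.0496 to 10.4), with an adjusted p = 3.4e-04 by Fisher's exact test. Just outside the threshold was the Mcm4 GGACT at 437 bases, at 22.4% (13 of 58 calls) in DMSO and 3.28% (2 of 61) in STM2457.

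**Figure D2:**
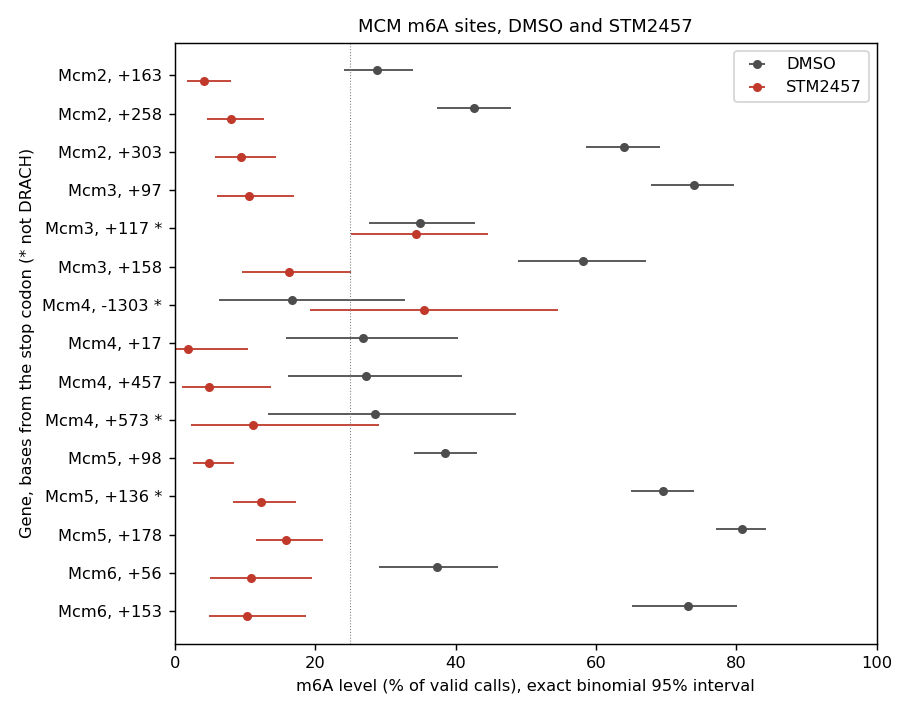
m6A level (percent of valid calls) with exact binomial 95% intervals at the 15 sites of the MCM mRNAs in DMSO and STM2457 (1 library each), named by gene and bases from the stop codon, with an asterisk for sites outside DRACH; the dotted line marks 25%. The 12 sites called lower span 26.8 to 80.9% for DMSO against 1.96 to 16.3% for STM2457, and the 3 others have intervals that overlap.

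By level in DMSO, the highest sites of Mcm5 (80.9%), Mcm3 (74.0%) and Mcm6 (73.1%) stood above that of Mcm2 (64.0%) and far above that of Mcm4 by DRACH motif (27.3%). The intervals of Mcm3 and Mcm6 overlapped with each other and with those of Mcm5 and Mcm2, so neighbours in this order could not be separated at this depth, except that Mcm4 lay apart. The intervals of Mcm5 and Mcm2 did not overlap. Pooled over the DRACH motifs of the 3′ UTR, the level in DMSO was 24.0% for Mcm5, 20.02% for Mcm6, 14.3% for Mcm3, 11.5% for Mcm2 and 9.53% for Mcm4. In STM2457 the pooled levels were 4.51% for Mcm5, 3.30% for Mcm6, 2.54% for Mcm3, 1.79% for Mcm2 and 1.45% for Mcm4, the same order.

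The motif around the adenosine was shared by most of the sites. GGACT stood at 5 of the 11 DRACH sites and AGACT at 3. The remaining 3 sites, described above, had a motif of their own each. Of the 7 GGACT motifs in the 3′ UTRs of the MCM mRNAs, 5 were at 25% or more in DMSO, beside 72.0% of 1259 in all 3′ UTRs. Of the 4 AGACT motifs there, 3 were, beside 41.5%.

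The 3 sites that were not called lower were all outside DRACH. Mcm3 had a GTATG at 117 bases after the stop codon with m6A in 57 of 163 calls in DMSO (35.0%) and in 34 of 99 in STM2457 (34.3%), with an adjusted p = 1.0 by Fisher's exact test. The next DRACH motif, a TGACT whose adenosine lies 3 bases further on, was at 8.65% (18 of 208 calls) in DMSO and 0 of 136 in STM2457, which allows a level of up to 2.68% by its exact interval. The internal coding site of Mcm4, a GCATG in exon 10, was m6A in 6 of 36 calls in DMSO (16.7%, interval 6.37 to 32.8) and in 11 of 31 in STM2457 (35.5%, interval 19.2 to 54.6), with an adjusted p = 0.103 by Fisher's exact test. A GTAAT of Mcm4 at 573 bases was m6A in 8 of 28 calls (28.6%) and in 3 of 27 (11.1%), with an adjusted p = 0.187 by Fisher's exact test.
Many calls failed the confidence filter at these 3 sites, 27.9 to 52.5% of the DMSO calls and 30.3 to 57.8% of the STM2457 calls, where the library averages were 8.87 and 8.85%, and the part of this in the levels was not tested. In all genes, 22 sites had GTATG, 11 had GCATG and 3 had GTAAT, and 0 of each were called lower by Fisher's exact test. These motifs were looked up after the values were seen.

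Other genes of DNA replication gave the comparison. A list of 50 genes for origin licensing, the replication fork and the polymerases, without the 6 MCM genes, had 26 genes with covered positions and 18 with sites. Of its 72 sites, 66 were DRACH, 70 were lower after STM2457 by Fisher's exact test (97.2%, beside 91.5% of all sites) and 0 were higher. The mean level went from 54.2 to 14.9%, and the median relative decrease was 79.9%. The 2 that were not lower were outside DRACH as well, in the last exon of Gmnn, which encodes the licensing inhibitor geminin (18.3% in DMSO, 25.3% in STM2457, adjusted p = 0.42 by Fisher's exact test), and in the 3′ UTR of Rpa2, a subunit of the single-strand binding protein (26.6 and 29.3%, adjusted p = 0.75 by the same exact test). Taken over every covered DRACH motif, the MCM mRNAs had a pooled level of 6.86% in DMSO and 1.17% in STM2457. Among 673 protein-coding genes with at least 20 such motifs, whose medians were 9.43 and 1.81%, the nearest in both values included Paf1, Gtf2h3, Senp3 and Wdr4, and such pooled levels move with which part of an mRNA is covered.

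The second question was what loss of METTL5 did to the same mRNAs. In the Mettl5 dataset 8 MCM sites passed the rule, 4 in Mcm2, 3 in Mcm3 and 1 in Mcm5, and 6 of them were DRACH. None was called different from WT in clone #1 or in clone #2 by Fisher's exact test with adjustment over all 1886 sites. Of all sites, 0.265% were lower and 0.265% higher in clone #1, 0.318% lower and 0.265% higher in clone #2, and 0.265% changed in the same direction in both. At an unadjusted p under 0.05, 0 of the 8 were counted in either clone, beside 6.79% and 7.95% of all sites. Averaged over the 8 sites, the level of 39.1% in WT compared with 38.7% for clone #1 and 38.9% for clone #2, while over all 1886 sites the clones were higher than WT by 2.44 and 2.41 percentage points. The clone mean minus WT was -0.31 points over the MCM sites (SD 0.15 between the 2 clones). This SD holds no counting error of WT, and differences of both signs went into the mean. Of the 8 sites, 3 were higher and 3 were lower in both clones. For the 6 DRACH sites alone the value was 0.79 points, with an SD of 1.90 between the clones. The clones share their single WT library.

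The same sites stood out in this dataset as in the DMSO library. The Mcm3 GGACT at 97 bases was m6A in 48 of 64 calls in WT (75.0%), and in 51 of 75 calls in each clone (68.0%). The Mcm2 GGACT at 303 bases was at 65.9% (54 of 82 calls) in WT, 56.6% (30 of 53) in clone #1 and 56.8% (21 of 37) in clone #2. Both clones lay below WT at these sites, within the intervals, with p = 0.45 in each clone for Mcm3 and p = 0.36 and 0.41 for Mcm2 by Fisher's exact test, unadjusted. The Mcm3 GGACT at 158 bases was at 47.8% (22 of 46 calls) in WT, 55.2% (32 of 58) in clone #1 and 45.2% (28 of 62) in clone #2. The clones lay on either side of WT there.

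The AGACT sites and the TGACT site were at or near the threshold. The Mcm2 AGACT at 258 bases was at 27.1% (23 of 85 calls) in WT, 32.2% (19 of 59) in clone #1 and 33.3% (13 of 39) in clone #2. The Mcm5 AGACT at 98 bases was at 28.6% (26 of 91 calls), 30.9% (17 of 55) and 33.3% (9 of 27). The Mcm2 TGACT at 163 bases was at 17.05% (15 of 88 calls), 31.2% (20 of 64) and 21.4% (12 of 56), and its p of 0.051 in clone #1 (adjusted p = 0.70, Fisher's exact test) was the lowest of the 8 sites. In all 3 the clones were above WT, with overlapping intervals. The Mcm2 TGACT passed the 25% rule through clone #1 only, so its difference there and its p are not independent of that selection.
Outside DRACH, the Mcm3 GTATG at 117 bases was at 26.7% (12 of 45 calls) in WT, 13.8% (8 of 58) in clone #1 and 25.5% (13 of 51) in clone #2. A CCACG in exon 11 of Mcm2, an internal coding exon, was exactly at the 25% threshold in WT (13 of 52 calls), at 21.7% (10 of 46) in clone #1 and at 27.9% (17 of 61) in clone #2, with 37.3% of calls in WT failing the filter. It was at 16.7% (30 of 180 calls) in DMSO and 13.5% (15 of 111) in STM2457, below the threshold in both. The strongest site of Mcm5, the GGACT at 178 bases, had exactly 25 calls in clone #2 and so was no site by the rule. It was at 74.2% (72 of 97 calls) in WT, 81.1% (43 of 53) in clone #1 and 60.0% (15 of 25) in clone #2, with overlapping intervals.

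**Figure D3:**
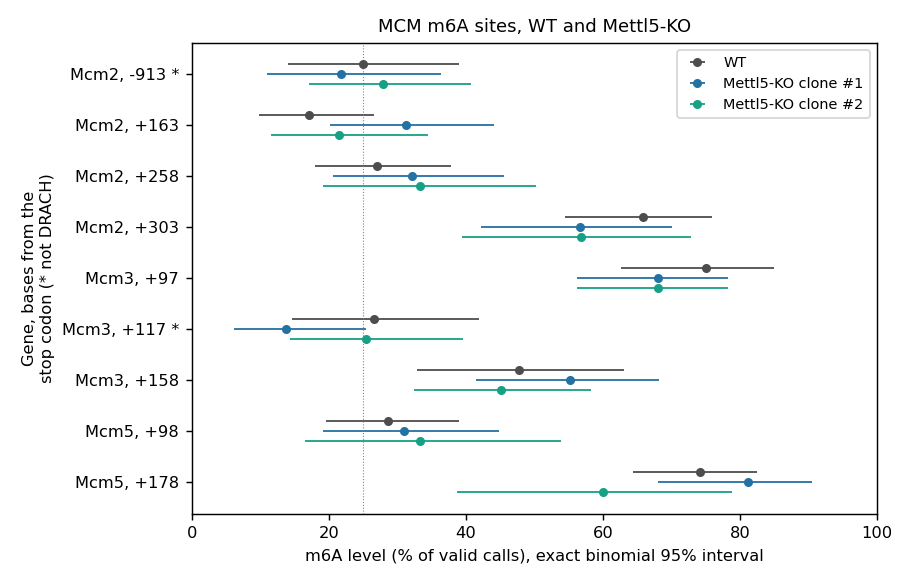
m6A level (percent of valid calls) with exact binomial 95% intervals at MCM positions in the WT library and in the libraries of both Mettl5-KO clones, named by gene and bases from the stop codon, with an asterisk outside DRACH; the last row, Mcm5 at 178 bases, had 25 calls in clone #2 and is not among the 8 sites. The 3 intervals overlap in every row.

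By transcript place WT resembled the DMSO library in these mRNAs, as far as they were covered. Of 20 DRACH motifs in the 3′ UTR, 5 were at 25% or more in WT, with a pooled level of 13.6%, beside 10.7% of 7546 motifs in all genes with a pooled level of 8.21%. In internal coding exons 0 of 66 were, beside 2.59% of 4715 in all genes, the highest was at 4.35%, and the pooled level was 0.630%. Of these 66, 59 lay within 100 bases of a junction, where 0.406% of 3937 motifs in all genes reached 25%. The 66 were in Mcm2 and Mcm4 only, and Mcm4 had no motif covered in the 3′ UTR here. Mcm2 alone had motifs in both places, with 2 of 12 in the 3′ UTR and 0 of 38 in internal coding exons at 25% or more. Over the 7 DRACH sites of the METTL3 inhibition dataset that were covered in the Mettl5 dataset, the mean was 55.3% in DMSO and 47.9% in WT, and WT was lower at 5 of the 7, with differences from -15.5 to 1.87 percentage points. Cell line, batch and run differ together between these libraries and cannot be told apart.

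Read depth gave a rough measure of how much of each mRNA was sequenced. In DMSO the highest number of valid calls at one position was 510 for Mcm5, 363 for Mcm2, 235 for Mcm3, 151 for Mcm6 and 61 for Mcm4, and counting (Poisson) intervals of neighbours in this order did not overlap. In STM2457 these numbers were 261 for Mcm5, 203 for Mcm2, 153 for Mcm3, 103 for Mcm6 and 64 for Mcm4. The order was the same, and by this measure Mcm4 alone was not below its DMSO depth. Its median depth was lower, at 51 calls in DMSO and 46 in STM2457. In WT the highest depth was 100 for Mcm5, 91 for Mcm2, 67 for Mcm3, 46 for Mcm4 and 38 for Mcm6, with overlapping counting intervals between each neighbour and the next.

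Relative to the median gene, whose depth ratio of STM2457 over DMSO was 0.840, the ratio was 0.609 for Mcm5 (interval 0.523 to 0.709), 0.666 for Mcm2 (interval 0.558 to 0.793), 0.775 for Mcm3 (interval 0.628 to 0.954), 0.812 for Mcm6 (interval 0.626 to 1.05) and 1.25 for Mcm4 (interval 0.866 to 1.80). Mcm5 and Mcm2, 2 of the 5, were lower by 1.5-fold or more, beside 9.25% of 2638 genes, and none was higher by as much, beside 10.5%. Mcm2 stood at that limit. Scaled by total valid calls, the ratios were 0.677 for Mcm5 and 0.740 for Mcm2, and neither passed it. No test of depth was possible with 1 library per condition, the intervals cover counting error only, and fewer cells with an mRNA cannot be told apart from less of it per cell. For the list of 50 replication genes, 4 of 26 covered genes were lower by 1.5-fold or more and 2 were higher, with a median of 0.881.

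**Figure D4:**
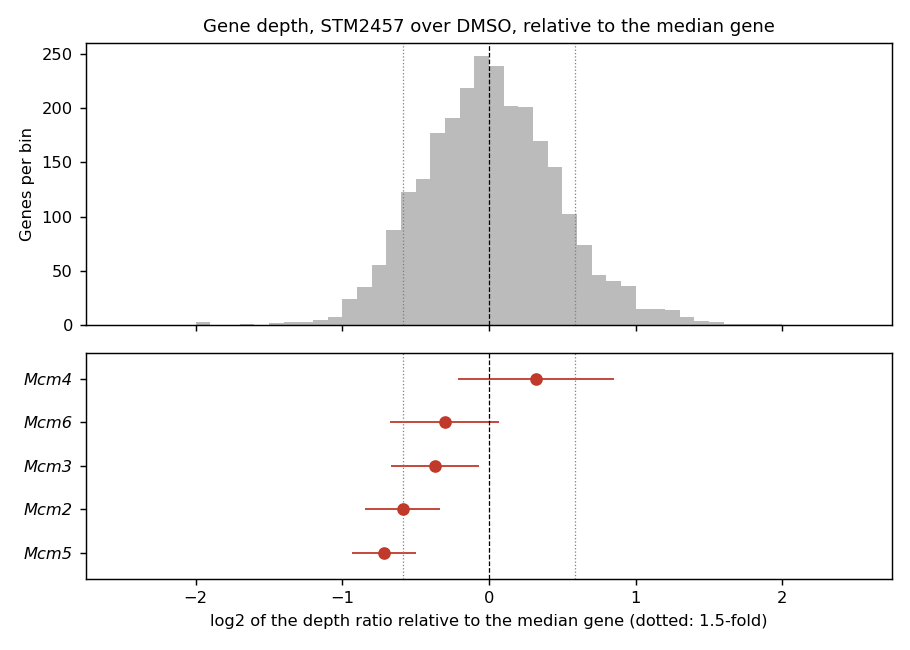
Log2 of the depth ratio of STM2457 over DMSO (highest valid calls per gene, relative to the median gene), as a histogram of 2638 genes above and as points for the 5 MCM mRNAs below, with counting 95% intervals; dotted lines mark 1.5-fold. Mcm5, Mcm2, Mcm3 and Mcm6 lie left of the median gene and Mcm4 lies right of it.

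In the Mettl5 clones the depth of Mcm5 was low. Its highest depth was 100 calls in WT, 57 in clone #1 and 28 in clone #2, which is 0.636 (interval 0.451 to 0.889) and 0.273 (interval 0.173 to 0.418) relative to the median gene. The value in clone #2 was at percentile 0.574 of 1045 genes. Since positions were deposited only with at least 25 calls in every library, genes with lower depth in a clone are not among those compared.
The relative depth was 0.846 and 0.921 for Mcm2, 1.27 and 1.16 for Mcm3, 0.679 and 0.614 for Mcm4, and 1.32 and 0.666 for Mcm6 in clones #1 and #2, and apart from Mcm4 in clone #2 each of these intervals included 1. Lower by 1.5-fold or more was 1 of the 5 mRNAs in clone #1, Mcm5, beside 9.57% of genes, and 3 of the 5 in clone #2, Mcm5, Mcm4 and Mcm6, beside 12.7%. None was higher by as much, beside 5.84% and 8.13% of genes. Scaled by total valid calls, Mcm5 was at 0.675 and 0.302, and clone #2 alone kept a 1.5-fold difference there, for Mcm5 only.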

How the data were processed

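Direct RNA sequencing covered 5 libraries in 2 datasets. The authors used WarpDemuX for demultiplexing, dorado for base and modification calls and for alignment (mm10), and modkit for pileups. The deposited values are counts of valid, m6A, failed and other calls per position and strand, and the deposited percent is m6A calls over valid calls. Failed calls are left out of the percent. Sequencing from the poly(A) tail favours 3′ ends. Gene models were those of GENCODE M21, with 1 principal transcript per gene, in place of the UCSC RefSeq exons of the study.

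Sites had more than 25 valid calls in every library and 25% or more in at least one. Fisher's exact test, two-sided, was adjusted by Benjamini-Hochberg over all sites, with a threshold of 0.05 in scipy 1.17.1 (under Python 3.11.15). It was tested on simulated data that held counting error only and no variation between libraries. The WT library is shared by both clones, and nothing in the labels pairs libraries. Members, lists and tests were chosen with earlier results of these data known. All sites of the members are named, and the nearest genes are the 5 with the smallest distance in pooled DRACH level in DMSO and STM2457, of which 1 is not reported here. Alternatives were other coverage and level thresholds, only DRACH motifs, failed calls counted as valid, other adjustments, pooled levels, other depth measures and each clone left out.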

Additional observations from a re-analysis of the deposited data

How the results depend on the processing

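The Mcm4 sites rested on 27 to 61 calls, and 1 library per condition gives no replicate error. Of the alternative values, 23 stayed close to the main value and 16 moved. The mean relative decrease after STM2457, 62.7% over the 15 sites, was 76.4% with a coverage of 50 or more, 44.1% with a level of 10% or more, 81.9% with a level of 50% or more, 75.5% with failed calls in the denominator, 82.6% for DRACH motifs only, 75.3% for sites at 25% or more in DMSO and 79.2% as a pooled level. With a level of 10% or more there were 43 sites in the METTL3 inhibition dataset, 19 of them lower, and 31 in the Mettl5 dataset. With 50% or more there were 6, of which 6 were lower. The clone mean minus WT, -0.31 percentage points over the 8 sites, was -0.68 with a coverage of 25 or more, 0.41 with a level of 10% or more, 0.79 for DRACH motifs only and 1.56 as a pooled level, and with either clone left out it was -0.42 and -0.21. This difference has no test, and its sign changed under the level of 10% or more, for DRACH motifs only and as a pooled level. The count of MCM sites called in both clones was 0 also with a coverage of 25 or more, with a level of 10% or more and at an unadjusted p under 0.05 (Fisher's exact test), and 0 were called in the remaining clone with either clone left out. No paired analysis was possible because WT, DMSO and STM2457 have 1 library each and nothing in the labels pairs them.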

Other observations

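Calls of the other modification classes (inosine and 2′-O-methyladenosine, pooled in the deposited counts) were rare on the MCM mRNAs, at 0.523% of valid calls in DMSO, 0.482% in STM2457, 0.617% in WT, 0.607% in Mettl5-KO clone #1 and 0.705% in clone #2. Over all exonic positions these shares were between 0.418 and 0.687%. In the METTL3 inhibition dataset 3 of the 1993 MCM positions were at 20% or more in both libraries, beside 312 of all 468161 exonic positions. An AAATT in the coding part of the last exon of Mcm2 was at 43.9% (87 of 198 calls) in DMSO and 40.2% (41 of 102) in STM2457. A TCATT in exon 14 of Mcm2 was at 22.3% (42 of 188 calls) and 21.4% (22 of 103). A GTATA in the 3′ UTR of Mcm5 was at 33.0% (107 of 324 calls) and 35.7% (55 of 154). The m6A level at these 3 positions was under 1% in both libraries, and 161, 151 and 178 further calls in DMSO failed the confidence filter. In the Mettl5 dataset 3 of 1084 MCM positions were at 20% or more in every library, beside 90 of 193656 exonic positions. They included the AAATT and the exon 14 TCATT of Mcm2. Whether these calls stand for a modification was not tested.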
